A study of Chlorocebus sabaeus with 6 samples.

Results

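Transcript levels across genes were described in wild-type (WT) COS7 cells, using the 3 WT samples of a series of 6. The samples were chosen by their label alone, WT1, WT2 and WT3, and the 3 samples of the other genotype were not compared with them. COS7 is an established line of fibroblast-like cells, obtained by SV40 transformation of African green monkey (Chlorocebus sabaeus) kidney cells. The labels give the genotype as WT and name no treatment. Per the labels, they were grown in DMEM with fetal bovine serum and antibiotics at 37 °C, and RNA extracted with TRIzol was made into mRNA libraries with a BGI kit. Whether the 3 samples were separate cultures is not said in the labels, so each SD below may hold technical variation alone.

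SV40 large T antigen binds tumour suppressors of the host cell, RB among them, and this keeps COS cells dividing. COS7 cells spread thin and flat on glass, and for that reason they are widely used to image the endoplasmic reticulum (ER), the membrane network in which secreted and membrane proteins are made. The kidney they came from holds many cell types: podocytes of the filter, the tubule segments that reabsorb solutes, the collecting duct, and the fibroblasts and vessels between them. Each is recognised by marker genes, and the levels of these markers in the line are given below by group.

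The WT libraries held 15007799, 14923619 and 15127039 estimated counts over 18050 genes. Counts were found for 15829, 15885 and 15819 genes. Levels are given in FPKM, which are counts scaled to transcript length and library depth, so that different genes can be set side by side. At 1 FPKM the median gene had 37.1 counts in a library. A gene was counted as present when its mean over the samples was at least 1 FPKM, and 11500 of 18050 genes (63.7%) were. The median level of all genes was 4.45 FPKM. The counts of genes per list below are to be read against that 63.7%. No count was found in any WT library for 1134 genes (6.28%). For such a gene, 0 counts over the 3 libraries allow a level of up to 0.0666 CPM (counts scaled to library depth alone), which covers counting error only. The 63.7% and 6.28% are shares of genes in the deposited table, which holds only part of some families by symbol, as given below.

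A small part of the genes supplied most of the signal. The 89 genes at 1000 FPKM or more (0.493% of the table) held 29.2% of the summed FPKM, and the 866 genes from 100 to 1000 FPKM held 35.8%. The 5863 genes from 10 to 100 FPKM held 31.2%, and the 4682 genes from 1 to 10 FPKM held 3.65%. The 368 most abundant genes held 50% of the summed FPKM. The plot of levels shows the 3 samples lying on each other over the whole range.

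**Figure D1:**
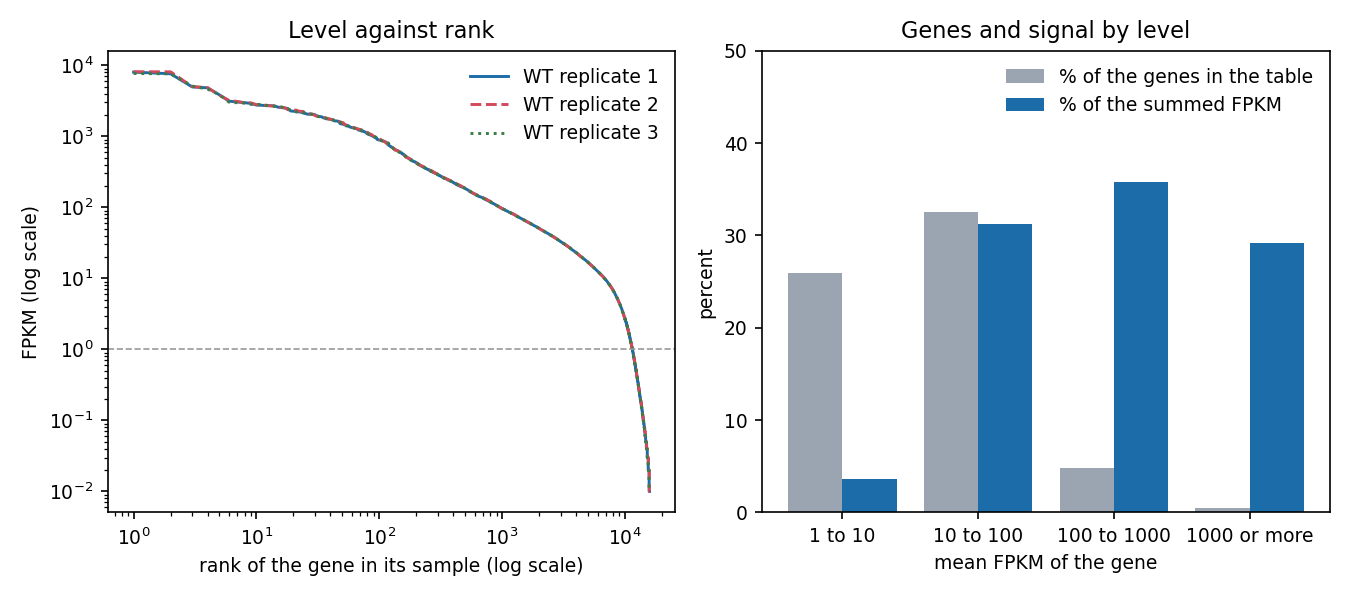
Left, FPKM of each gene against its rank in each of the 3 WT samples, both on log scales, with a dashed line at 1 FPKM; the 3 curves overlap from the first to the last ranks. Right, percent of the 18050 genes and percent of the summed FPKM by level; the 89 genes at 1000 FPKM or more are 0.493% of the genes and hold 29.2% of the signal.

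The most abundant transcripts encoded glycolytic, cytoskeletal and translation proteins. GAPDH, a glycolytic enzyme, was first with 8016, 8096 and 7676 FPKM in WT1, WT2 and WT3 (7929 ± 223; SD, n = 3). TMSB10, a small protein that binds actin monomers, followed with 7610, 8120 and 7576 FPKM (7769 ± 305). In WT2 TMSB10 stood above GAPDH, and in WT1 and WT3 below it, so the order of these 2 genes is not settled by the 3 samples. EEF1A1, which brings aminoacyl-tRNA to the ribosome, had 4964, 4852 and 5104 FPKM, lower than both in every sample. PPIA, the peptidyl-prolyl isomerase cyclophilin A, had 3820 ± 37.5 FPKM. ACTB and ACTG1, the cytoplasmic actins, had 2766 ± 39.1 and 2603 ± 27.3 FPKM. Of the 10 most abundant genes, 5 had counts that were not whole, as division of reads among copies gives, and 2 are named only by a number in the table.

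Ribosomal proteins were the largest family by signal. Of 87 genes named as ribosomal proteins, 86 reached 1 FPKM and 70 reached 100 FPKM, a level reached by 5.29% of all genes, with a median of 999.9 FPKM. Together they held 16.11 ± 0.127% of the summed FPKM, and they made up 46 of the 100 most abundant genes. Both values leave out genes named only by a number, which are 17 of those 100. By gene ID in RefSeq, such genes include RPS15A (1708 FPKM), RPS4X (1190), RPL7A (1162) and RPS3A (930). The family's share and its 46 members in the top 100 are therefore too low. RPS2, of the small subunit, was highest with 4815, 5018 and 4615 FPKM. All 49 translation initiation factor genes and all 21 genes of the spliceosome core (SF3 and SNRP names) were present. Of 48 proteasome subunit genes, 46 were present, with a median of 109.6 FPKM. Glycolytic genes held 2.416% of the summed FPKM, with 18 of 20 present. ENO1 (enolase) had 1402 ± 8.06 FPKM and ALDOA (aldolase A) 1031 ± 48.7.

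Several cytoskeletal genes were among the most abundant transcripts. TUBA1B, an alpha tubulin, had 2249, 2246 and 2125 FPKM, and TUBB, a beta tubulin, 1289 ± 8.5. PFN1 (profilin, which loads actin monomers) had 1173 ± 49.8 FPKM. The thymosins and profilins as a list held 1.684% of the summed FPKM. TMSB10 exceeded its relative TMSB4X in each sample, by ratios of 13.1, 14.2 and 12.8 per length. ANXA2, a membrane-binding annexin, and S100A10, its partner, had 2214 ± 22.7 and 707.5 ± 23.7 FPKM. Among the non-muscle myosin heavy chains, MYH10 had 39.9 ± 0.88, MYH9 18.6 ± 0.342 and MYH14 4.83 ± 0.172 FPKM. The order of these 3 was the same in every sample, and the ratio of MYH10 to MYH9 was 2.14 ± 0.0865. The other 9 myosin heavy chain genes (MYH names) of the table were under 1 FPKM.

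Regulators of kidney development were present in part. PAX8, a transcription factor of the nephric lineage, had the highest level of the list, 76.28 ± 0.807 FPKM (SD, n = 3). LHX1, which acts in the same lineage, had 34.62, 35.55 and 31.65 FPKM. EMX2, a homeobox factor of the early urogenital ridge, had 20.5, 22.79 and 23.7 FPKM. These 3 genes kept the same order in every sample. HOXD11 followed with 12.1 ± 0.508 FPKM and TBX18, a factor of stromal and ureteric mesenchyme, with 7.69 ± 0.784.

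Other regulators of the same organ were near 0. PAX2, the close relative of PAX8, had 0.04, 0 and 0.02 FPKM from 3 counts in all. The Wilms tumour gene WT1 (a gene symbol here, not the sample), of podocytes and their progenitors, had 0.09, 0.07 and 0.07 FPKM. HNF4A, a regulator of the proximal tubule, had 0.14, 0.2 and 0.19 FPKM. TCF21, of kidney stroma and podocytes, had no count. In all, 11 of 23 kidney lineage factors reached 1 FPKM (47.8%, against 63.7% of all genes), and their median was 0.923 FPKM.

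Markers of the differentiated nephron were mostly low. Of 54 segment markers, 13 reached 1 FPKM (24.1%, against 63.7% of all genes), and 26 were under 0.1 FPKM. Podocyte markers had 6 of 12 present. The highest were CD2AP (37.2 ± 1.45 FPKM), SYNPO (30.2 ± 1.72), KIRREL1 (28.4 ± 1.23) and PODXL (24.5 ± 1.6), which encode membrane and scaffold proteins that other cells also make. PLA2R1, a receptor, and NPNT (nephronectin), a secreted matrix protein, had 4.39 ± 0.217 and 3.43 ± 0.0503 FPKM. NPHS1 (nephrin), of the slit diaphragm that defines podocytes, was near 0 with 0.04 ± 0.01 FPKM.

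Of 19 proximal tubule markers, 4 were present. PDZK1, a scaffold of transporters at the brush border, had 18.5, 17.09 and 16.35 FPKM. SLC4A4, the sodium bicarbonate cotransporter, had 13.81, 12.78 and 14.41 FPKM. AQP1, a water channel, had 6.98, 7.5 and 6.62 FPKM, and was the 1 aquaporin of 10 in the table at 1 FPKM or more. SLC3A1, a subunit of the cystine carrier, had 4.99 ± 0.368 FPKM, with counts that were not whole. LRP2 (the endocytic receptor megalin), SLC34A1 (the phosphate carrier) and SLC22A6 (the organic anion carrier) had no count in any library. CUBN (cubilin), which works with megalin, had 0.0533 ± 0.0153 FPKM, and SLC5A2, a glucose carrier, had 0.09 ± 0.0173 FPKM. The 4 present markers lay between 4.99 and 17.3 FPKM.

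Few markers of the later segments were present. WNK4, a kinase that regulates salt transport, was the 1 of 9 loop and distal tubule markers present, with 4.04, 3.64 and 3.44 FPKM. In the collecting duct list, 2 of 14 were present, SCNN1A (the alpha subunit of the epithelial sodium channel, 1.4 ± 0.0764 FPKM) and HSD11B2 (which inactivates cortisol, 1.2 ± 0.115). SCNN1B, the beta subunit of the same channel, had 1 count in all. Of 10 genes known to be induced in injured tubules, 8 were present (80.0%, against 63.7% of all genes). The highest were VIM and KRT7, which are also in the fibroblast and epithelial lists below. Among the others present, SPP1 (osteopontin) had 18 ± 1.15, HAVCR1 (kidney injury molecule) 5.66 ± 0.39, LCN2 (lipocalin) 2.4 ± 0.321 and SOX9 1.06 ± 0.0643 FPKM. VCAM1 had 1 count.

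Fibroblast markers ranged from some of the highest levels in the cell to no count. FN1 (fibronectin), which links cells to the matrix, had 1897, 1832 and 1783 FPKM, and its 222733 estimated counts in WT1 were the most of any gene. VIM (vimentin), the intermediate filament of mesenchymal cells, had 1511, 1551 and 1536 FPKM. SPARC, a secreted matrix glycoprotein, had 77.7 ± 3.36 FPKM. ENG (endoglin) had 32.7 ± 1.21. FN1 and VIM were thus among the 89 genes at 1000 FPKM or more.

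THY1, a surface antigen used to define fibroblasts, and DCN (decorin), a matrix proteoglycan, had no count in any library. A count of 0 says that the deposited table assigned no read to the gene. Whether the transcript models behind THY1, COL1A2 and CGAS, all listed at 0, can collect their reads was not tested. The PDGF receptors, which receive the main growth signal of mesenchymal cells, were low: PDGFRB had 0.63, 0.53 and 0.6 FPKM and PDGFRA 0.21, 0.31 and 0.25. In all, 17 of 29 fibroblast and stromal markers were present (58.6%, against 63.7% of all genes). That share is close to the share of all genes, so the count by itself does not set the list apart.

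The collagen genes also differed widely in level. COL4A1 and COL4A2, the chains of basement membrane collagen, had 110.4 ± 2.59 and 90.5 ± 4.17 FPKM, with a ratio of 1.22 ± 0.0343 in length-corrected levels. COL5A1 and COL5A2 had 65.4 ± 1.99 and 41.1 ± 1.82 FPKM. COL6A1 had 43.1 ± 1.55 FPKM, and 2 partner chains, looked up after the values were seen, had 39.2 ± 2.31 (COL6A2) and 0.07 ± 0.02 (COL6A3). COL1A1, one chain of type I collagen, had 7.97, 7.51 and 6.72 FPKM, while COL1A2, the other chain, was listed at 0 in every library, with the limit given above for such genes. COL3A1, the fibrillar collagen of soft tissue, had 0.03 ± 0.02 FPKM from 7 counts. Over the family 17 of 43 collagen genes were present (39.5%).

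Contractile genes also divided. TPM1 (tropomyosin) had 1005, 947 and 1033 FPKM, CALD1 (caldesmon) 59 ± 2.07 and TAGLN (transgelin) 57.3 ± 4.14. ACTA2, the smooth muscle actin of activated fibroblasts, had 3 counts, all of them in WT3. MYL9, the smooth muscle light chain, had none, and MYH11, the smooth muscle heavy chain, had 3. The list counted 7 of 13 present.

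Epithelial genes were expressed beside the mesenchymal ones. KRT7, KRT8 and KRT18, the keratins of simple epithelia, had 642.5 ± 22.5, 508.2 ± 42.9 and 189.4 ± 5.92 FPKM. KRT8 was lowest in WT3, with 540, 525 and 460 FPKM. KRT8 and KRT18 have many near-identical copies in primate genomes, and their counts were not whole, so these levels are uncertain. KRT19, another simple keratin, had 0.24, 0.32 and 0.16 FPKM. Only 5 of the 36 keratin genes in the table reached 1 FPKM, and the family median was 0.02 FPKM. The ratio of VIM to KRT18 per length was 8.10 ± 0.325.

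Junction genes were present over a wide range. TJP1 (the tight junction scaffold ZO-1) had 64.8 ± 0.436 FPKM, DSP (desmoplakin, of desmosomes) 46.4 ± 1.29 and CLDN4 (a claudin) 46.45, 51.81 and 46.34. EPCAM, an epithelial adhesion molecule, had 13.49, 11.87 and 13.47 FPKM. CLDN7 had 3 counts and RAB25 had none. In all, 21 of 30 epithelial markers were present (70.0%, against 63.7% of all genes). This share too is close to that of all genes, so the count by itself does not set the list apart.

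The cadherins showed which of the classical adhesion genes led. CDH2 (N-cadherin), typical of mesenchymal and neural cells and of some tubule cells, had the highest level of the 15 cadherin genes, 186.4 ± 7.34 FPKM. CDH1 (E-cadherin), typical of epithelia, had 4.78, 4.93 and 4.8 FPKM. The ratio of CDH2 to CDH1 per length was 38.8, 36.4 and 40.5 in the 3 samples. CDH17, known from intestinal epithelium, and CDH13, a cadherin without a transmembrane part, had 73.8 ± 3.6 and 47.3 ± 0.531 FPKM, and both lay above CDH1 as well.

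Transcription factors of both programmes were detected together. Of the 6 factors known to drive the epithelial to mesenchymal transition, 5 were present: ZEB1 (10.42, 9.86 and 10.7 FPKM), TWIST2 (6.86 ± 0.217), SNAI2 (5.30 ± 0.16), ZEB2 (3.83 ± 0.0569) and SNAI1 (2.77 ± 0.187). TWIST1 had 1 count in all. Of 9 regulators of the epithelial state, 5 were present. KLF5 led with 26.4 ± 1.07 FPKM, and ESRP1, an epithelial splicing factor, had 1.53, 1.11 and 1.09. TP63, of stratified epithelia, had no count. Bulk RNA cannot tell whether mesenchymal and epithelial transcripts came from the same cells, nor fewer expressing cells from less RNA per cell, and this holds for every low level given here.

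**Figure D2:**
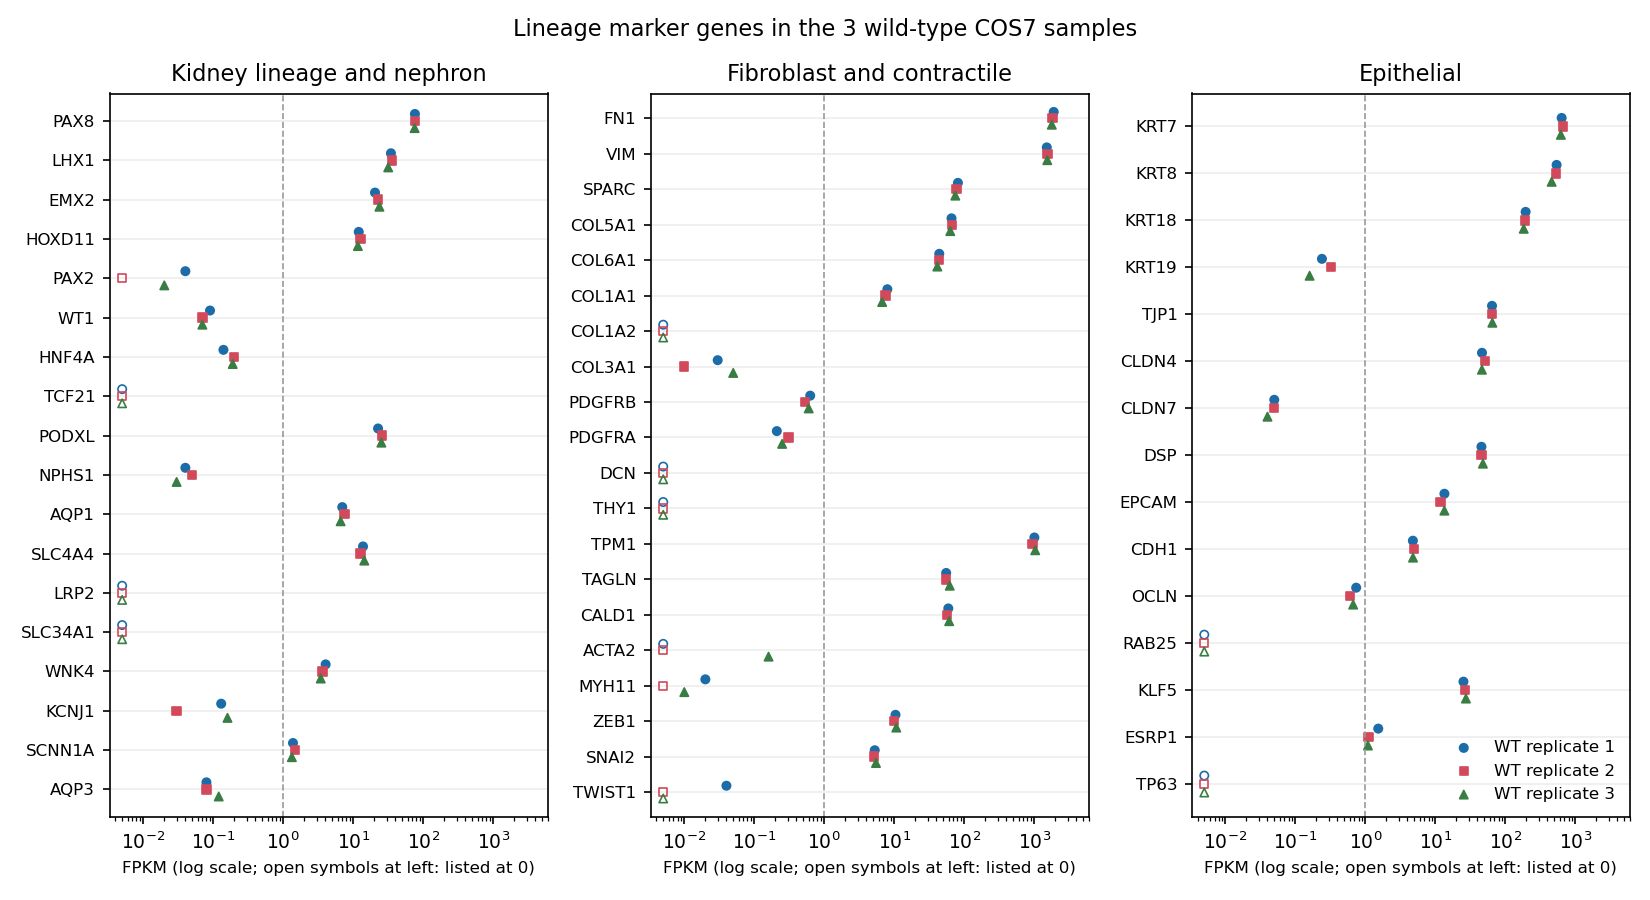
FPKM (log scale) of kidney, fibroblast and epithelial marker genes in each of the 3 WT samples, with a dashed line at 1 FPKM and open symbols at the left edge for samples listed at 0. PAX8, FN1, VIM, KRT7 and KRT8 lie far right in every sample, while LRP2, COL1A2, DCN, THY1, RAB25 and TP63 are listed at 0 in all 3.

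Markers of other cell types were mostly low. Of 69 markers of endothelial, immune, neuronal, hepatocyte and striated muscle cells, 11 were present (15.9%, against 63.7% of all genes), and their median was 0.103 FPKM. The 13 endothelial markers had 1 member present, EGFL7, a secreted factor, at 9 ± 0.998 FPKM. KDR and PLVAP, of endothelial cells, had no count, and PECAM1 had 0.12 ± 0.0265 FPKM. The 14 immune markers had 3 present: CD68, a lysosomal protein of macrophages and other cells, had 15 ± 0.926 FPKM, LYZ (lysozyme) 7.21 ± 0.448 and CORO1A 3.54 ± 0.492. PTPRC (CD45), carried by all nucleated blood cells, had 0.133 ± 0.0404 FPKM, and CD14 and TYROBP had no count.

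The neuronal list had 3 of 16 present. UCHL1, a ubiquitin hydrolase abundant in neurons, had 102.6, 103.2 and 98.6 FPKM, far above the rest of its list. TUBB3, a beta tubulin, had 11.6 ± 0.475 FPKM and RBFOX3 1.08 ± 0.0964. SNAP25 and SYP, of synaptic vesicle release, were under 1 FPKM. Hepatocyte markers had 2 of 14 present, SERPINA1 (antitrypsin) at 20.1 ± 1.31 and ALB (albumin) at 1.28 ± 0.11 FPKM. Striated muscle markers had 2 of 12 present, TNNT1 (a slow troponin) at 15.1 ± 0.493 and ACTC1 (cardiac actin) at 2.88 ± 0.415. MYH2, MYH7 and CKM, of muscle fibres, had no count, and the liver gene APOB had 4.

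Positional identity was recorded in the HOX genes, homeobox factors set along the body axis in 4 clusters. Of 38 HOX genes, 33 were present (86.8%). HOXA5 was highest, with 40.2, 42.6 and 38.6 FPKM, followed by HOXA9 with 24.7 ± 0.694 and HOXB6 with 23.1 ± 0.225. HOXA held 10 of 11 present, HOXB 9 of 9, HOXC 5 of 9 and HOXD 9 of 9. Under the limit of 1 FPKM were HOXA13 (0.807 FPKM) and HOXC5 (0.223 FPKM), both detected in every sample. HOXC11, HOXC12 and HOXC13 were each under 0.02 FPKM. Along HOXA the level was 40.5 FPKM for HOXA5 and 1.16 for HOXA11. In the HOXD cluster HOXD9, HOXD10 and HOXD11 stood at 15.8, 11.1 and 12.1 FPKM, and HOXD12 and HOXD13 at 1.92 and 1.2. These HOX values lie outside the naming rule in part and were chosen to show whole clusters.

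Other transcription factor families were expressed in part. Zinc finger genes with ZNF names had 304 of 389 present (78.1%), but at low levels, with a median of 2.71 FPKM, below the 4.45 FPKM of all genes. FOX factors had 20 of 39 present, led by FOXM1, a driver of mitotic genes, at 94.3 ± 1.62 FPKM. SOX factors had 6 of 13 present, led by SOX4 at 22.5 ± 0.516. Of 6 PAX genes, 2 were present, PAX8 and PAX6, the latter known from eye and pancreas, at 9.28 ± 0.586 FPKM.

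Several families of tissue-restricted genes had few or no present members. None of 11 taste receptor, 6 siglec and 6 clustered protocadherin genes reached 1 FPKM. Chemokine receptors had 1 of 14 present: CXCR4 was listed at 1.03 FPKM in each of the 3 samples. Glutamate receptor genes (GRI and GRM names) had 2 of 24 present, led by GRINA at 42.8 ± 2.2 FPKM. GRINA carries the family's name but is not a channel subunit. Keratin-associated proteins had 1 of 11 present and interleukins 3 of 30, with IL11 the highest of them at 82.2 ± 6.48 FPKM.

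Most ion channel genes were under 1 FPKM. Potassium channel genes (KCN names) had 18 of 75 present, led by KCNG1, a modifying subunit, at 17 ± 0.779 FPKM and KCNMB4, another modifying subunit, at 12.1 ± 0.572. Voltage-gated sodium channel genes had 3 of 14 and calcium channel genes 5 of 24. Solute carriers, which serve general metabolism as well as special tissues, had 189 of 329 present (57.4%), near the share of all genes. SLC25A5, the mitochondrial ADP/ATP carrier, was highest among them at 687 ± 7.13 FPKM. The families counted here hold only the genes matched by symbol in the deposited table, such as 11 of the 20 taste receptor and 11 of the 38 keratin-associated genes in RefSeq. Olfactory receptors were not analysed here.

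**Figure D3:**
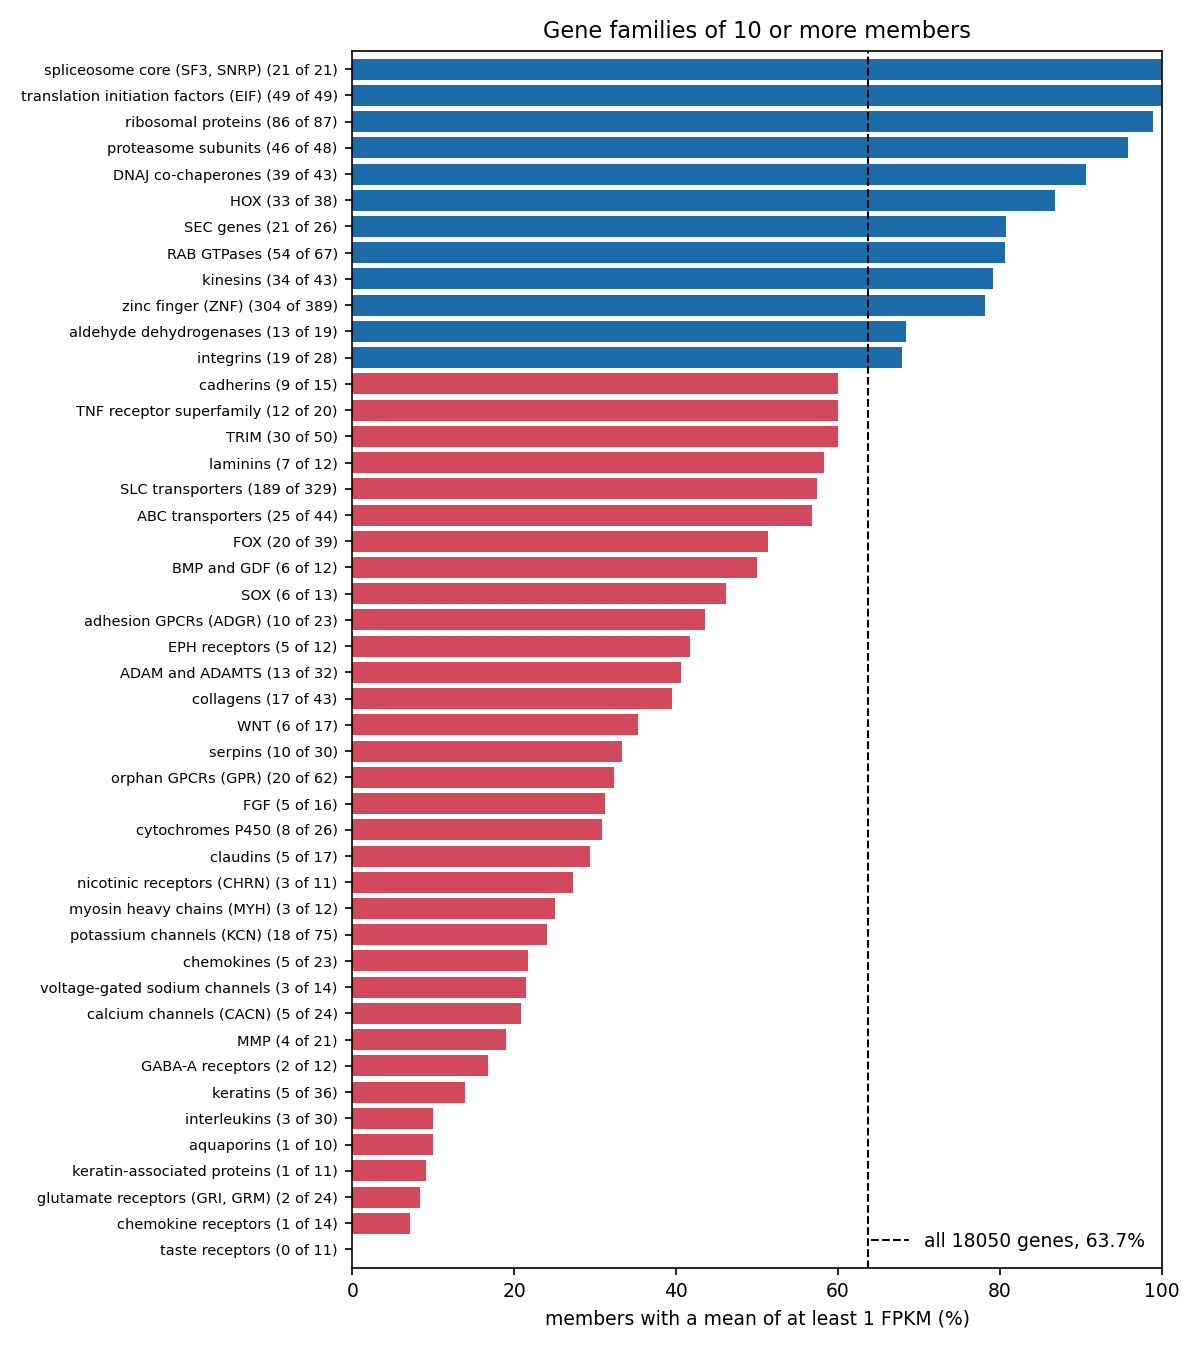
Percent of members with a mean of at least 1 FPKM in the WT samples, for gene families of 10 or more members in the table, with the count behind each bar in its label; the dashed line is the 63.7% of all 18050 genes, blue bars lie at or above it and red bars below. Spliceosome and EIF genes stand at 100%, taste receptors at 0 of 11, and SLC transporters near the line.

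The share of receptor genes present differed between lists. Over all receptor lists, 182 of 341 genes were present (53.4%, against 63.7% of all genes), with a median of 1.26 FPKM. By list the share ran from 38.4% (G protein-coupled receptors) to 77.8% (Notch, Frizzled and Hedgehog receptors), on both sides of the share of all genes. Receptor tyrosine kinases, which pass growth factor signals through phosphorylation, had 25 of 55 present. AXL, the receptor of GAS6, was highest with 183, 190.1 and 184.2 FPKM. MET, the receptor of hepatocyte growth factor, had 92.95, 88.78 and 93.95 FPKM. EPHA2 (an ephrin receptor) had 51 ± 1.66, ERBB2 25.4 ± 1.54 and EGFR 11.58, 11.48 and 10.83 FPKM. KIT, KDR, EPHA3 and EPHA6 had no count. AXL, MET and EPHA2 kept the same order in every sample with no overlap.

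Integrins, the receptors for matrix, had 16 of 25 present. ITGB1, the beta chain shared by most pairs, had 287, 268.1 and 300.7 FPKM. ITGA3 (a laminin receptor chain) had 132.5 ± 6.1, ITGA5 (the fibronectin receptor chain) 48.4 ± 1.62 and ITGA6 31.7 ± 0.22 FPKM. ITGB1 was 2.16 ± 0.205 times ITGA3 per length. The leukocyte chains ITGAM and ITGAD had 3 and 1 counts.

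Receptors for TGF-beta and BMP ligands had 10 of 13 present. ENG, a coreceptor, BMPR1A (29.7 ± 1.72 FPKM) and TGFBR2 (21.19, 21.11 and 21.01) led. ACVRL1, the endothelial type I receptor, had no count. Notch, Frizzled and Hedgehog receptors had 14 of 18 present. SMO (the Hedgehog signal transducer) had 19.7 ± 0.935, NOTCH2 18 ± 0.285 and FZD2 (a WNT receptor) 16.2 ± 0.252 FPKM, while NOTCH3 and NOTCH4 were at 0.15 and 0.103 FPKM.

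Cytokine receptors had 31 of 50 present (62.0%). TNFRSF12A, the receptor of the cytokine TWEAK, led with 136.6, 138.9 and 130.4 FPKM. LTBR (lymphotoxin beta receptor) had 83.3 ± 1.94 and TNFRSF1A (a TNF receptor) 71 ± 3.52 FPKM. IFNGR2 and IFNAR1, chains of the interferon receptors, had 42 ± 3.08 and 37.5 ± 1.61. Receptors of lymphoid and lactogenic signals, IL7R and PRLR, had no count.

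G protein-coupled receptors had 33 of 86 present (38.4%) and a median of 0.258 FPKM, the lowest of the receptor lists. ADGRG6, an adhesion receptor known from myelination, had 75.33, 71.13 and 76.63 FPKM. ADORA2B, an adenosine receptor, had 58.16, 60.04 and 57.69 FPKM. F2RL1, a receptor cut by proteases, had 28.4 ± 1.23 FPKM. ADRA1A, CHRM1, DRD1 and S1PR4 had no count. Thus a few members stood well above a list in which most were under 1 FPKM.

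Nuclear receptors, which bind hormones and lipids and act on DNA, had 21 of 43 present. PPARG, known from fat cells and the urinary tract, led with 49.28, 50.78 and 48.97 FPKM. NR1H2 (a sterol sensor) had 33.6 ± 2.94 and NR2F6 25 ± 1.98. ESR1, an oestrogen receptor, had no count. The list of cargo and scavenger receptors, which also holds other membrane proteins, had 21 of 31 members present. Highest were 2 of those other proteins, BSG (basigin, 509.4 ± 30.7 FPKM) and CD63, a tetraspanin of late endosomes (504.8 ± 7.7). TFRC, the transferrin receptor, had 68.11, 64.98 and 74.79 FPKM.

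Sensors of innate immunity had 12 of 21 present. IFI16, a DNA-binding sensor, had 32.89, 32.37 and 33.26 FPKM, EIF2AK2, a kinase that senses double-stranded RNA, 20.5 ± 0.669, and MAVS, an adaptor on mitochondria, 14.3 ± 1.19. STING1, the adaptor that receives the signal of CGAS, had 10.86, 11.21 and 8.89 FPKM. CGAS itself was listed at 0 in every library, with the limit given above for such genes. NLRP3, an inflammasome sensor, also had no count.

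Of 54 secreted growth factors, 32 were present (59.3%). CCN1 and CCN2, matrix-bound targets of YAP signalling, had 489.8 ± 7.41 and 129.6 ± 4.37 FPKM. TGFB1 had 100.4, 105.7 and 96 FPKM, and its receptor TGFBR2 was present as given above. GDF15, a stress cytokine, had 72.6 ± 6.2 and VEGFA 60 ± 3.84 FPKM. IGF1 had no count and EREG had 1. Among cytokines and chemokines 7 of 21 were present. IL11 stood alone at 81.11, 89.1 and 76.27 FPKM. The next of that list, TNFSF12, had 8.53 ± 0.793, and IL6 had 1.45, 1.55 and 1.65.

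The ER and the machinery of transport out of it were expressed almost completely. Of 246 genes in 10 lists, 234 were present (95.1%, against 63.7% of all genes), with a median of 33.2 FPKM against 4.45 for all genes. They held 2.666 ± 0.027% of the summed FPKM. Lists of general cell machinery are expressed in most cells, and these counts are a description of the line, with no test.

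Proteins that shape ER membranes had 22 of 24 present. The reticulons RTN4 and RTN3, which curve tubules, had 139.5, 132.7 and 145 FPKM and 102.5, 95.4 and 101.9 FPKM. KTN1 (kinectin) and CKAP4, proteins of ER sheets, had 90.2 ± 4.75 and 69.2 ± 0.555. Of the atlastins, GTPases that fuse ER tubules, ATL3 had 37.33, 34.73 and 35.36 FPKM and ATL2 30.54, 29.17 and 32.16. ATL3 was above ATL2 in each sample, by a ratio of 1.17 ± 0.0638, though it had fewer counts per sample before division by length. ATL1, the neuronal atlastin, had 0.16, 0.41 and 0.4 FPKM from 36 counts. REEP1, a tubule protein of neurons, had 0.203 ± 0.0907.

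All 33 genes of the translocon and of targeting to it were at 10 FPKM or more, a level reached by 37.8% of all genes. Their median was 62.2 FPKM. SRP14, of the signal recognition particle, had 487.8 ± 18.1 FPKM with counts that were not whole, and SSR2, of the translocon-associated complex, 420.9 ± 13.9. Of the 3 core subunits of the SEC61 channel, SEC61B stood at 130.7 ± 5.17, SEC61G at 91.7 ± 6.2 and SEC61A1 at 88.9 ± 1.65. SEC61G and SEC61A1 changed order between samples, with 94.25, 84.66 and 96.27 against 87.61, 90.73 and 88.23 FPKM. The lowest of the list was SPCS3, of the signal peptidase, at 14 ± 0.708.

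The 12 subunits of oligosaccharyltransferase, which attaches sugar chains to new proteins, were all present, with a median of 154.8 FPKM, the highest median of the ER lists. OST4 had 351.8, 369.7 and 335.9 FPKM and DDOST 302.6, 308.5 and 296.8. STT3A, a catalytic subunit, had 77.5 ± 2.12, and TUSC3 was lowest at 23.8 ± 0.757. The transcripts of these 12 genes were therefore not at a common level.

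Folding factors of the ER lumen had 28 of 29 present. CALR (calreticulin), which binds sugar chains and calcium, had 979.5, 969.4 and 987.3 FPKM, and its membrane-bound relative CANX 160.6 ± 6.34, a ratio of 6.10 ± 0.186 per length. HSP90B1 (GRP94) had 442.7 ± 25 and HSPA5 (BiP) 281.7 ± 10.8 FPKM. CALR3, the testis form, had 2 counts. Disulfide isomerases and oxidases had 20 of 23 present. P4HB had 371.7, 374.1 and 362.6 FPKM, PDIA3 294.5 ± 4.36 and PDIA6 215 ± 3.25. AGR2, the isomerase of mucus-secreting cells, and GPX7 had no count.

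The degradation arm had 28 of 29 present. VCP, the ATPase that pulls proteins out of the membrane, had 140.3 ± 1.01 FPKM. DERL3, known from secretory cells, had 2 counts. Factors of the unfolded protein response had 16 of 17 present. ATF4, a transcription factor regulated at translation, had 207.1, 212.1 and 201.5 FPKM. XBP1 had 29.82, 29.71 and 29.49, and ATF6 26.58, 23.05 and 23.18. ERN1 (IRE1 alpha), the sensor that splices XBP1, had 1.63, 1.37 and 1.71 FPKM, the low end of its list. ERN2, its gut form, had 3 counts.

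In COPII transport out of the ER, 32 of 34 genes were present with a median of 43 FPKM. KDELR1, which returns ER residents from the Golgi, had 276.5, 269.6 and 261.4 FPKM, and KDELR2 95.8 ± 4.13. TMED2, a cargo receptor, had 156.9 ± 7.36. SEC16B and SEC31B, relatives of the general coat genes, had 0.0133 and 0.757 FPKM. COPI genes, of the return route, had 17 of 18 present. ARF1 had 252.9 ± 4.12 and COPE 251.5 ± 17.1, and these overlapped. COPZ2 had 2 counts beside 106.1 ± 1.31 FPKM for COPZ1. Golgi genes had 26 of 27 present and a lower median of 17.2 FPKM, led by GALNT2, which starts mucin-type sugar chains, at 55.4 ± 0.45.

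Genes of regulated secretion, used by endocrine and nerve cells, had 10 of 19 present (52.6%). PAM, which amidates peptides, had 20.38, 18.76 and 19.5 FPKM and CPE, a carboxypeptidase, 17.9 ± 1.37. The hormone convertase PCSK2 had no count, PCSK1 had 2 and CHGA, a granule protein, 1. Secreted matrix and carrier genes had 51 of 56 present and held 1.75% of the summed FPKM. After FN1 came IGFBP3, which binds insulin-like growth factors, with 1645, 1652 and 1642 FPKM. CST3 (cystatin C) had 1051 ± 61 FPKM.

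**Figure D4:**
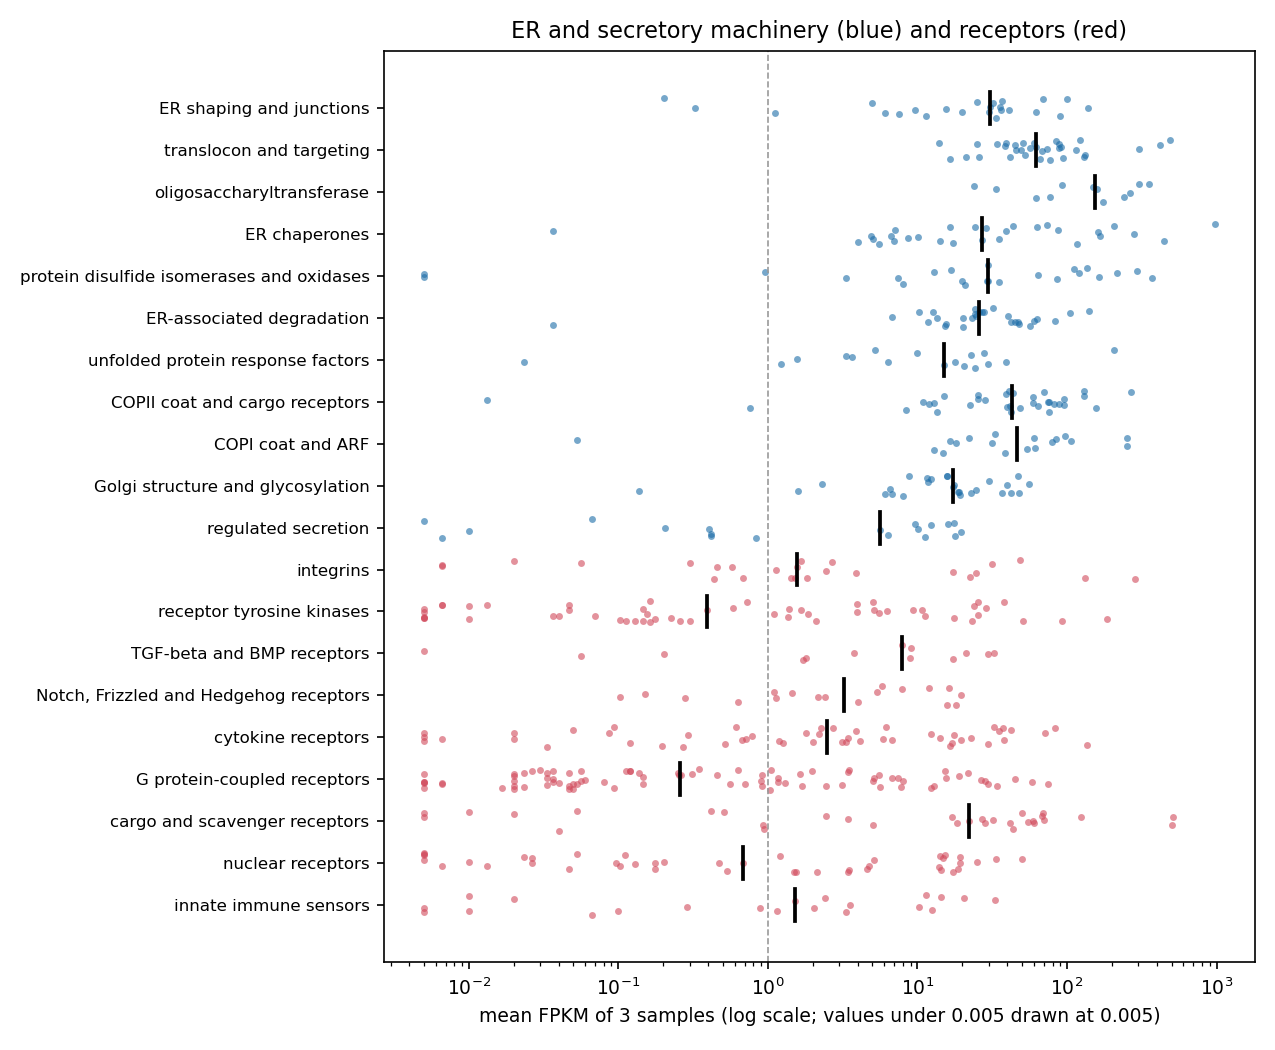
Mean FPKM over the 3 WT samples (log scale) of each member of the ER and secretory lists (blue) and the receptor lists (red), with a black bar at each list's median and a dashed line at 1 FPKM. The ER and transport lists lie mainly between 10 and 300 FPKM, whereas G protein-coupled receptors have a median of 0.258 FPKM.

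Genes of proliferation were present with few exceptions. All 41 DNA replication genes were at 10 FPKM or more, from GINS1 at 11.6 ± 0.959 to PCNA, the sliding clamp, at 344.9, 330.2 and 357.5 FPKM. RRM2, which makes deoxynucleotides, had 323.8 ± 6.09 FPKM. Of 33 regulators of the cell cycle, 31 were present. CDK4 had 273.1, 300.2 and 276.5 FPKM and CCNB1 (cyclin B1) 228.2 ± 10.2. MYC had 76.6 ± 2.74. CCND2, a D cyclin, had 0.06 ± 0.0265 FPKM.

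Genes of growth arrest and cell death were also measured. BAX, a cell death effector, had 72.1 ± 4.41, GADD45A 69.8 ± 4.14 and CDKN1A (p21) 32.49, 33.08 and 33.34 FPKM. FAS, a death receptor, had 0.717 ± 0.155 and SPATA18 had 1 count. Viral transcripts were not analysed here.

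The 3 samples differed little. Over the genes at 1 FPKM or more, the median coefficient of variation (CV, SD over mean) was 5.197%. The CV of counting error, taken as 1 over the square root of the mean count, had a median of 4.241%. A CV over 3 samples has a median below the true CV by its construction, so counting alone would give less than 4.241%. The median CV was 2.68% for genes at 1000 FPKM or more, 3.36% from 100 to 1000, 4.4% from 10 to 100 and 7.63% from 1 to 10. The spread beyond counting, as edgeR's common biological coefficient of variation, was 3.921%. Among the 8768 genes at 5 FPKM or more (48.6% of the table), the SD of the log2 difference was 0.12 between WT1 and WT2, 0.11 between WT1 and WT3 and 0.14 between WT2 and WT3. The WT2 and WT3 libraries were thus farthest apart. A small trend with transcript length moved with that difference. In WT2 the median log2 deviation from the gene's mean was 0.0145 for the shortest of 5 equal length classes and -0.0251 for the longest, and in WT3 it was -0.0118 and 0.0265. Its part in the spread was not tested.

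**Figure D5:**
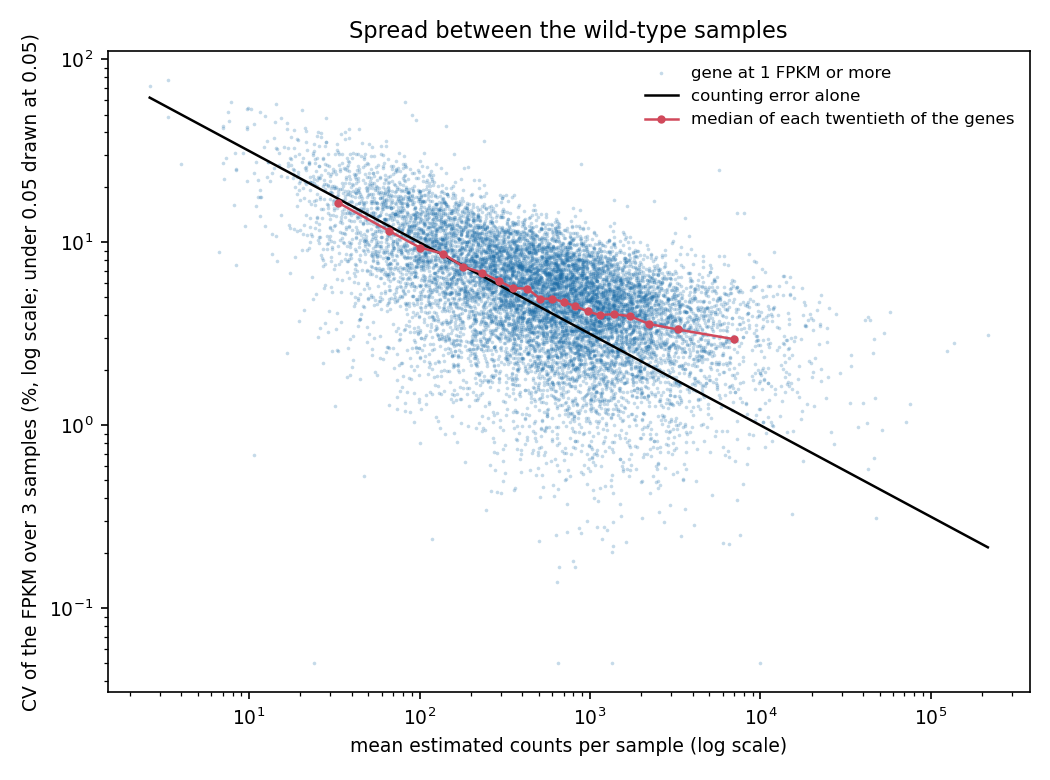
CV of the FPKM over the 3 WT samples (%, log scale) against the mean estimated counts per sample (log scale) for the 11500 genes at 1 FPKM or more, with the median in each of 20 equal groups of genes (red) and the CV that counting error alone gives (black). The medians lie near the counting line at low counts and above it at high counts. A CV over 3 samples has a median below the true CV by its construction. Medians near the line therefore do not show that counting error is the only spread there.

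Few genes moved by much. The highest sample was more than 1.5 times the lowest in 293 of 11500 genes (2.55%), and in 30 of 8768 genes (0.342%) at 5 FPKM or more. Of those 30, the highest value was in WT2 for 17, in WT1 for 9 and in WT3 for 4. The largest spread beyond counting at that level was that of SNURF, which shares a transcript with SNRPN, with 5.29, 11.44 and 6.23 FPKM. TMEM99 had 7.34, 3.68 and 7.06 FPKM, low in WT2, and ENDOG, a mitochondrial nuclease, 10.85, 14.99 and 9.13, high in WT2. Of the 10 genes of largest spread, 8 had counts that were not whole, and 6 are named only by a number. Counts that were not whole made up 26% of the 100 genes of largest spread and 8.74% of all genes at that level. Whether the division of reads between copies sets that spread was not tested.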

How the data were processed

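Messenger RNA was measured in 3 WT samples of COS7 cells. The authors deposited 1 table that holds, per the file headers, estimated counts, FPKM (counts scaled by the authors for transcript length and library depth) and TPM (the same levels scaled to a common sum) for each of 18050 genes and each sample. The deposited TPM were 1.68 to 1.69 times the FPKM. The estimated counts of 1411 genes (7.82%) were not whole. Per the submitters' processing notes, HISAT and Bowtie2 were among the tools. Tool versions, genome build and counting software were not given in the sources used here. Another 9 columns, of 3 other samples, were left out.

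Levels are means of the deposited FPKM ± SD (n = 3). No test was made, since 1 group was described. Genes were named by the table's symbols or, where a list symbol was missing, through its gene ID in RefSeq (assembly mChlSab1.0.hap1), where 16730 IDs (92.7%) matched. One list gene whose ID carried another gene's name was left out. No genome sequence was used, so no coordinates or sequences are given. Gene families were taken by symbol, so genes named only by a number (2389) are in none. The 47 gene lists, the 57 families and the members described were chosen with earlier results of these data known. Named genes were the 30 most abundant with a symbol, the 6 highest and 4 lowest members of each list, the 3 highest of each family, the 10 of largest spread at 5 FPKM or more, and a set of lineage genes. Ratios of gene pairs were chosen after the values were seen. The estimated counts were rounded and their common biological coefficient of variation was taken with edgeR 4.0.16 in R 4.3.3 (TMM, low-count filter with a minimum of 10), with DESeq2 1.42.0 size factors as an alternative. The spread calculation was tested on simulated data. Tables and figures were made with pandas 2.3.3, numpy 2.4.6 and matplotlib 3.10.9 in Python 3.11.15. Some genes of these lists are not reported here.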

Additional observations from a re-analysis of the deposited data

How the results depend on the processing

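Alternatives were another limit on the level, TPM in place of FPKM, counts in place of levels, other normalizations and filters, other pseudocounts, and leaving out each sample in turn. The number of genes at 1 FPKM or more was 11494 to 11515 without 1 sample and 8768 to 12321 over the other limits and units. The number of genes with no count in any WT sample was 1134, and other definitions of silent gave more: 3938 had under 10 counts over the 3 samples, and 3895 had a mean under 0.1 FPKM. It was 1501 to 1543 without 1 sample. In estimated counts, not divided by length, the 10 most abundant genes held 5.87% in place of 7.43%, and the 100 most abundant 18.7% in place of 31%. The median spread between replicates, a CV of 5.197%, was 7.59% with no filter on low values and 3.65% to 5.21% without 1 sample, where an SD over 2 samples has a lower median by its construction. The biological coefficient of variation was 2.721% without WT2, 3.581% without WT3 and 5.143% without WT1, against 3.921% with all 3, so WT2 adds most to the spread. The other normalizations and filter gave 3.921% to 3.925%. TPM raised 519 of 632 named levels and all 47 list medians past the spread between samples, by the common factor of 1.68 to 1.69. Counts of list members at 1 FPKM or more stayed within 1.5 times for all 47 lists without any 1 sample, and moved by more for 15 lists at a limit of 5 FPKM, 4 at 0.5 FPKM and 2 in TPM. Of the 20 ratios between genes, 19 moved past their spread in counts not divided by length, so they rest on the authors' transcript lengths. The number of genes over 2-fold apart was 52 in FPKM and, as an alternative added after seeing the data, 52 in CPM after TMM normalization. No paired analysis was possible because only 1 group was described and no test was made. Genes under 1 FPKM rest on few counts, and near-identical copies make some levels uncertain.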

Other observations

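The genes named here were chosen after their values were seen and are given as values. B2M, the light chain of MHC class I, had 698, 668.9 and 726.2 FPKM. GSTP1, a glutathione transferase, had 570.1 ± 35 FPKM (SD, n = 3), and CYP3A5, a drug-metabolising cytochrome known from liver and kidney, 27.8 ± 0.787. ABCB1, a drug efflux pump of the proximal tubule and other barriers, had 28.05, 25.72 and 27.75 FPKM, with counts that were not whole. DEFB1, a defensin of kidney tubule epithelium, had 8.37 ± 0.155 FPKM, and CCL25, a chemokine known from thymus and gut, 9.13 ± 0.703. GFAP, the intermediate filament of astrocytes, had 19.61, 19.21 and 16.34 FPKM.

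CFL1, cofilin, which severs actin filaments and is abundant in most cells, had 3.9, 3.93 and 3.77 FPKM from counts that were not whole. Its relatives CFL2 and DSTN had 35 ± 0.783 and 203.4 ± 8.42 FPKM. Whether the division of reads among copies sets the level of CFL1 was not tested.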
